A study of Mus musculus with 24 samples.

Results

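The regions described here are 495 stretches of A/J mouse liver chromatin that held a FAIRE-seq peak on high fat diet and after diet reversal and none on control diet. They were found by merging the peaks of all 6 deposited lists on chromosomes 1 to 19 wherever they shared at least 1 bp, which gave 49364 regions, 39145 of them open in A/J on 1 diet or more. The 495 were chosen by the presence of peaks in the A/J HF and Reversal lists and their absence from the A/J Control list, so their A/J pattern is a description and not a finding. C57BL/6J peaks, widths and chromosomal positions were not used in that choice, apart from the merging itself. Distances to A/J Control peaks are bound by it in part, since no member may overlap such a peak. So is the overlap of a member's HF and Reversal peaks, since these had to fall in the same merged region.

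Liver of 3 A/J groups and 3 C57BL/6J groups entered, each with 2 FAIRE libraries, 12 in all. HF mice were fed high fat diet for 16 weeks, Reversal mice high fat diet for 8 weeks followed by 8 weeks on control diet, and Control mice the control diet for 16 weeks. For Reversal the sample tags state 16 weeks on control diet, and the 8 weeks of the treatment protocol were used. Both strains are inbred, C57BL/6J is widely used as a strain that becomes obese on high fat diet, and A/J is known as a more resistant one. The sources used here give neither the sex and age of the mice nor whether both libraries of a group stem from different animals. The series asks whether chromatin that changed on high fat diet stays changed after the return to control diet. "Gained" and "kept" compare separate groups and follow no animal over time, and the shorter high fat feeding of Reversal mice cannot be told apart from their return to control diet.

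FAIRE recovers DNA that crosslinks poorly to nucleosomes, so that its peaks mark open chromatin such as active promoters, enhancers and other sites bound by transcription factors. In liver, such sites are held open by hepatocyte factors of the FOXA, HNF4 and C/EBP families, and diet-responsive ones are often bound by nuclear receptors such as PPAR alpha. Liver is a mixture of cell types, and a change in the makeup of cells cannot be told apart in these lists from a change in openness within cells. Genes near the regions are not named and no sequence is printed, because the lists are in mm9 and no mm9 genome or annotation was used here. For the same reason the liver label was not checked against marker genes.

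Each strain and diet has 1 peak list, so no difference between lists has a replicate check and no test was run. The A/J lists held 33963 peaks on HF, 35332 on Reversal and 36410 on Control, and the C57BL/6J lists 33371, 32727 and 35465. Each peak carries the authors' own signal on a scale that is not given. It is used here only to rank peaks within a list, as a percent of that list, with 100% the weakest peak. Lists differ in length, so that a difference in rank between lists describes the lists and shows no change in openness. The lowest signals were 0.107, 0.125 and 0.119 in the A/J lists on HF, Reversal and Control, and a region without a peak is one that did not reach its list. Peak names carry serial numbers, and the highest listed number of each chromosome was taken as its count of peaks once numbered. On that assumption the A/J lists hold between 22.5% and 30.4% of those peaks, and the C57BL/6J lists between 14.5% and 20.4%. Peaks numbered after the last listed one are missed, so these shares are upper limits. The sources used here do not state how deeply each library was sequenced, so the part of depth in any difference between lists was not tested. Intervals are 95% Wilson intervals for shares, Newcombe intervals for differences of shares, and binomial order-statistic intervals for medians. They cover counting error over regions only.

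Most HF regions were open on Control too. Of 32316 A/J HF regions, 2411 held no Control peak (7.46%), and 495 of all HF regions were gained and kept (1.53%). The kept regions are thus 20.5% of the gained ones (18.97 to 22.2), and the other 1916 were open on HF only.

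The strongest members show 2 kinds of profile. The region with the highest A/J HF signal lay on chromosome 18 from 26748532 to 26748917 (mm9, 1-based, as are all positions here), 386 bp wide. It ranked at 43.8% of the A/J HF list, where its signal was 0.309, and at 80.2% of the A/J Reversal list, where its signal was 0.170. In C57BL/6J it held a peak on every diet, at 29.1% of the HF list, 33.2% of the Reversal list and 15.2% of the Control list. It thus stood higher in each C57BL/6J list than in either A/J list, and highest in the Control list, the diet whose A/J list it is missing from.

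Another 4 of the 8 members with the highest HF signal had that form. The region on chromosome 12 from 17974058 to 17974489 ranked at 45.3% on HF and 91.1% on Reversal in A/J, and at 14.6% on HF, 19.8% on Reversal and 4.99% on Control in C57BL/6J. The region on chromosome 10 from 92232639 to 92233010 ranked at 47.0% and 84.1% in A/J, and at 37.2%, 42.0% and 23.3% in C57BL/6J in the same order of diets. The region on chromosome 3 from 72484551 to 72484889 ranked at 51.7% and 90.2% in A/J, and at 39.5%, 42.2% and 24.3% in C57BL/6J. All 3 stood near the middle of the A/J HF list, in the weakest 20% of the A/J Reversal list, and in the strongest 25% of the C57BL/6J Control list. The chromosome 18 region from 20247211 to 20247608 was of the same form, at 52.2% and 87.5% in A/J against 19.7%, 28.3% and 13.04% in C57BL/6J.

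The other kind had A/J ranks near the middle of both lists or above it, and its highest C57BL/6J rank on Reversal. The member with the highest A/J Reversal signal lay on chromosome 16 from 15885445 to 15885878, 838 bp from the nearest A/J Control peak. It ranked at 47.3% of the HF list and 37.1% of the Reversal list in A/J, and at 79.5%, 37.0% and 93.2% of the HF, Reversal and Control lists in C57BL/6J. In C57BL/6J it thus stood low in the HF and Control lists and much higher in the Reversal list. The region on chromosome 13 from 60410629 to 60410978 had 53.3% and 52.0% in A/J, and 96.5%, 47.9% and 92.9% in C57BL/6J. The region on chromosome 11 from 44197581 to 44197937 had 52.0% and 53.1% in A/J, and 63.1%, 42.8% and 69.1% in C57BL/6J. Here too the highest C57BL/6J rank was the one on Reversal.

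Regions on chromosome 8 from 58291182 to 58291586 and on chromosome 5 from 35976795 to 35977280 complete the 5 members with the highest Reversal signal. The first had 53.3% and 42.8% in A/J and 44.1%, 28.9% and 36.0% in C57BL/6J, and the second 54.8% and 46.5% in A/J and 64.7%, 40.5% and 54.6% in C57BL/6J. These 5 are also the members, 5 in all, that ranked stronger than 60% in both A/J lists. In each of the 5 the highest of the 3 C57BL/6J ranks was the one on Reversal. A further 23 members ranked stronger than 60% on HF alone, 21 of them weaker than 80% on Reversal, and 2 did so on Reversal alone. The likeness between the strains was seen in the values first and was not tested.

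**Figure D1:**
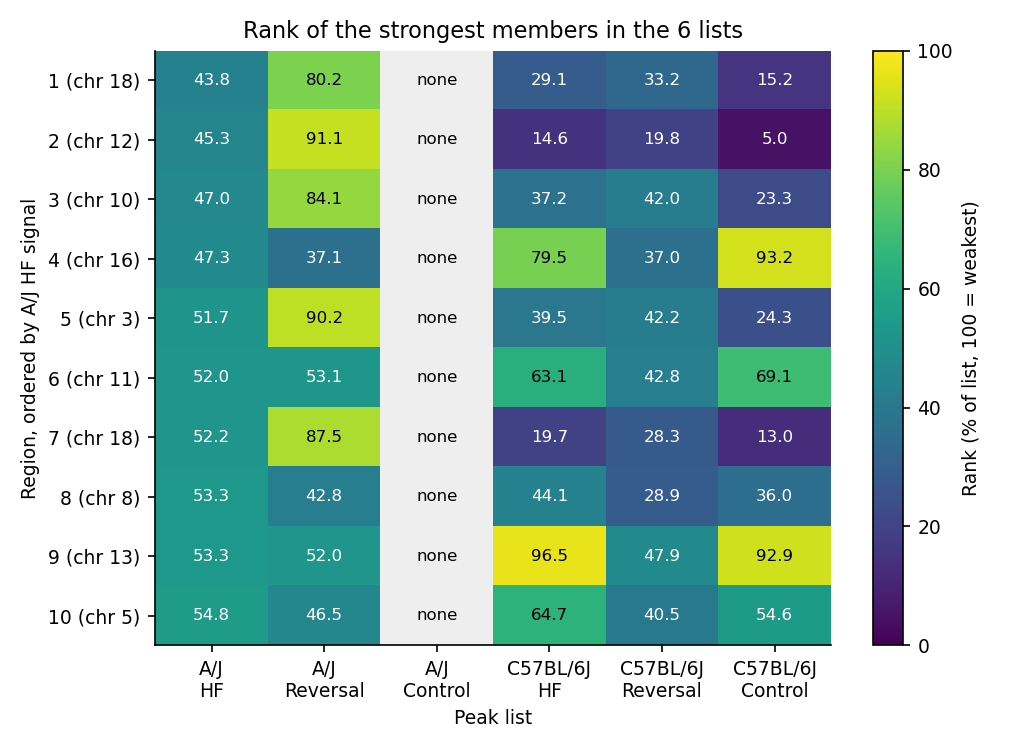
Rank, as a percent of each peak list (100 is the weakest peak), of the 10 members with the highest A/J HF or A/J Reversal signal, in rows ordered by A/J HF signal, across the 6 lists in columns; "none" marks the A/J Control list, which holds no peak there. Rows 4, 6, 8, 9 and 10 rank between 37.1% and 54.8% in both A/J lists and have their highest C57BL/6J rank on Reversal, while rows 1, 2, 3, 5 and 7 are weaker than 80% on A/J Reversal and have their highest C57BL/6J rank on Control.

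All members with a peak in every C57BL/6J list, 126 in number, were then split by their A/J ranks, with 93 stronger on HF than on Reversal and 33 stronger on Reversal. The highest C57BL/6J rank was the one on Control in 72 of the 93 (77.4%) and in 12 of the 33 (36.4%), and the one on Reversal in 11 of the 93 (11.8%) and 10 of the 33 (30.3%). Reversal ranked above HF in C57BL/6J in 33 of the 93 (35.5%, 26.5 to 45.6) and in 13 of the 33 (39.4%, 24.7 to 56.3), shares whose intervals overlap. Regions that hold a peak in all 6 lists and rank weaker than 40% on A/J HF give the background, with 3926 of them stronger on A/J HF and 3533 stronger on A/J Reversal. There the highest C57BL/6J rank was the one on Control in 66.2% and 34.1%, and the one on Reversal in 15.7% and 43.1%. By this measure a split of the same direction is thus found in the background and is not particular to the members. The background is not matched on rank. Its median A/J HF ranks were 55.5% and 56.3%, against 74.9% and 89.1% for the members. Reversal ranked above HF in C57BL/6J in 43.7% and 61.1% of these background regions, a wider split than the 35.5% and 39.4% of the members.

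Members were weak peaks in the A/J lists, as were regions of the other A/J patterns that lack a list. Their HF rank ran from 43.8% to 99.96%, with a median of 87.8% (86.4 to 88.9), and their Reversal rank from 37.1% to 99.97%, with a median of 89.4% (88.5 to 90.6). Of the 495, 290 lay in the weakest 20% of both lists (58.6%), 175 in the weakest 20% of 1 list (35.4%) and 30 in neither (6.06%). The median HF rank was 89.3% for HF-only regions (88.7 to 89.9) and 87.5% for regions open on HF and Control (86.5 to 88.5), and the median Reversal rank was 92.6% for Reversal-only regions (92.2 to 92.9). Regions open on all 3 A/J diets had medians of 43.6% on HF and 41.7% on Reversal. HF was the stronger rank in 264 members (53.3%, 48.9 to 57.7). With both lists held to their strongest 80% and the Control list whole, an alternative chosen after the data were seen, only those 30 would qualify, 4.94% of the regions then gained.

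At the edge of the lists, inclusion rests on small differences in signal. The 3 members with the lowest HF signal all had 0.1067, against a lowest listed value of 0.1066, and lay on chromosome 4 from 134938323 to 134938544, chromosome 5 from 123651542 to 123651926 and chromosome 7 from 105571878 to 105572346. The 3 with the lowest Reversal signal had 0.1249 or 0.1250, against a lowest listed value of 0.1249, and lay on chromosome 1 from 136003320 to 136003615, chromosome 4 from 52442490 to 52442754 and chromosome 9 from 107432114 to 107432427. Just outside were regions with an HF and a Reversal peak and a Control peak at the bottom of its list. One of them, on chromosome 13 from 37780876 to 37781522, had signals of 0.129 on HF, 0.175 on Reversal and 0.119 on Control. Another HF region, on chromosome 2 from 37658690 to 37658969, missed by 26 bp the Reversal peak that would have made it a member, while a member on chromosome 16 from 93592955 to 93593305 lay 7 bp from a Control peak.

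**Figure D2:**
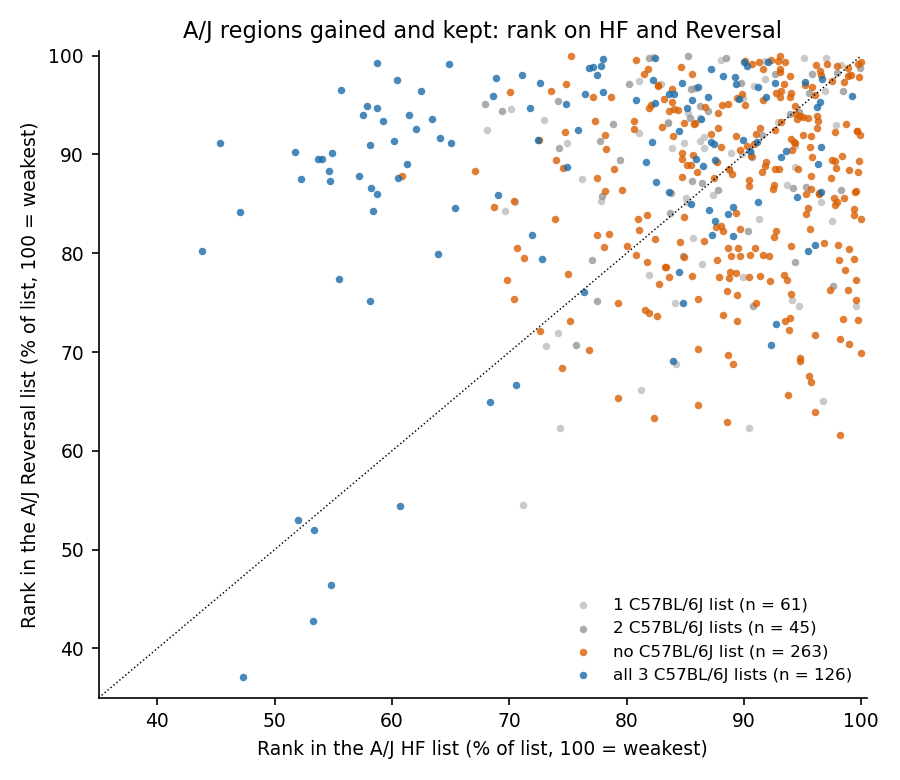
Each point is 1 of the 495 members, with its rank in the A/J HF list on the x axis and in the A/J Reversal list on the y axis (percent of the list, 100 is the weakest peak), coloured by how many C57BL/6J lists hold a peak there; the dotted line marks equal rank. Most points crowd the weak corner, the 28 members stronger than 60% on HF are all open in every C57BL/6J list, and 5 members are stronger than 60% in both lists.

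Members were chosen by HF and Reversal peaks that fall in the same merged region, so the overlap of these peaks is largely fixed by the choice. In 493 of 495 members the strongest peak of each list overlapped the other by at least 50% of the shorter one, and in 2 members these peaks did not touch. Their summits lay a median of 10 bp apart (8 to 11, quartiles 4 and 19), close to the 9 bp (8 to 9) of 3692 regions that hold a peak in all 3 A/J lists and rank in the weakest 20% on HF. Peaks were narrow, with a median width of 298 bp on HF (287 to 310) and 295 bp on Reversal (287 to 303). The HF peak of HF-only regions measured 279 bp (276 to 282) and that of all-diet A/J regions 526 bp (520 to 531). Among all-diet regions in the weakest 20% on HF it was 287 bp (284 to 293), with an interval that overlaps that of the members.

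Merged over all lists, the members ran from 207 to 2787 bp. The widest lay on chromosome 8 from 126143739 to 126146525, 702 bp from the nearest A/J Control peak, with A/J ranks of 80.8% (HF) and 95.5% (Reversal), and every C57BL/6J list had a peak there. Its strongest HF and Reversal peaks had summits 1690 bp apart, the largest such distance among members, so they do not mark the same position. The next lay on chromosome 2 from 156665446 to 156667295 and on chromosome 3 from 89124456 to 89126120, 226 and 246 bp from a Control peak and again with peaks in every C57BL/6J list. In the chromosome 2 region the summits also lay far apart, at 156665718 on HF and 156667054 on Reversal. The narrowest, on chromosome 17 from 78834154 to 78834360, on chromosome 12 from 103021153 to 103021360 and on chromosome 9 from 35625295 to 35625508, held no C57BL/6J peak. Merged width takes in C57BL/6J peaks, of which the widest at a member, on Control, measured 2787 bp, against at most 1041 bp for A/J HF peaks. Width and presence in C57BL/6J are therefore tied by the merging. The 3 widest members lay at most 702 bp from a Control peak and the 3 narrowest at least 15208 bp away, which describes these named members only.

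In C57BL/6J, 232 of the 495 members held a peak in at least 1 list (46.9%, 42.5 to 51.3), against 71.9% of all regions with an A/J peak. A peak in all 3 C57BL/6J lists was found in 126 members (25.5%, 21.8 to 29.5), against 57.1% of all A/J regions. Of the 30 members left when only the A/J HF and Reversal lists are cut to their strongest 80%, 43.3% held one (27.4 to 60.8). A further 61 held a peak in 1 list and 45 in 2, and 263 (53.1%, 48.7 to 57.5) in none. Whether reads of both strains map to mm9 alike was not tested, so that a difference between the strains in openness cannot be told apart from one in mapping.

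Other A/J patterns lay on either side of the members. Among 1916 HF-only regions, 75.4% held a C57BL/6J peak (73.4 to 77.3), so that the members' share was lower by 28.5 percentage points (difference -28.5, -33.3 to -23.7). Among 1466 regions open on Reversal only, 12.1% did (10.6 to 13.9), and the members' share was higher by 34.7 points (30.0 to 39.4). Regions open on HF and Control but not on Reversal had 62.9% of 1194, and those open on Reversal and Control but not on HF had 20.5% of 3072. All-diet A/J regions, which like the members have both an HF and a Reversal peak, had 85.2% of 28711, and Control-only regions 19.6% of 2291. The members' share thus lay below that of the other 3 patterns with an HF peak and above that of the 3 patterns without one.

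**Figure D3:**
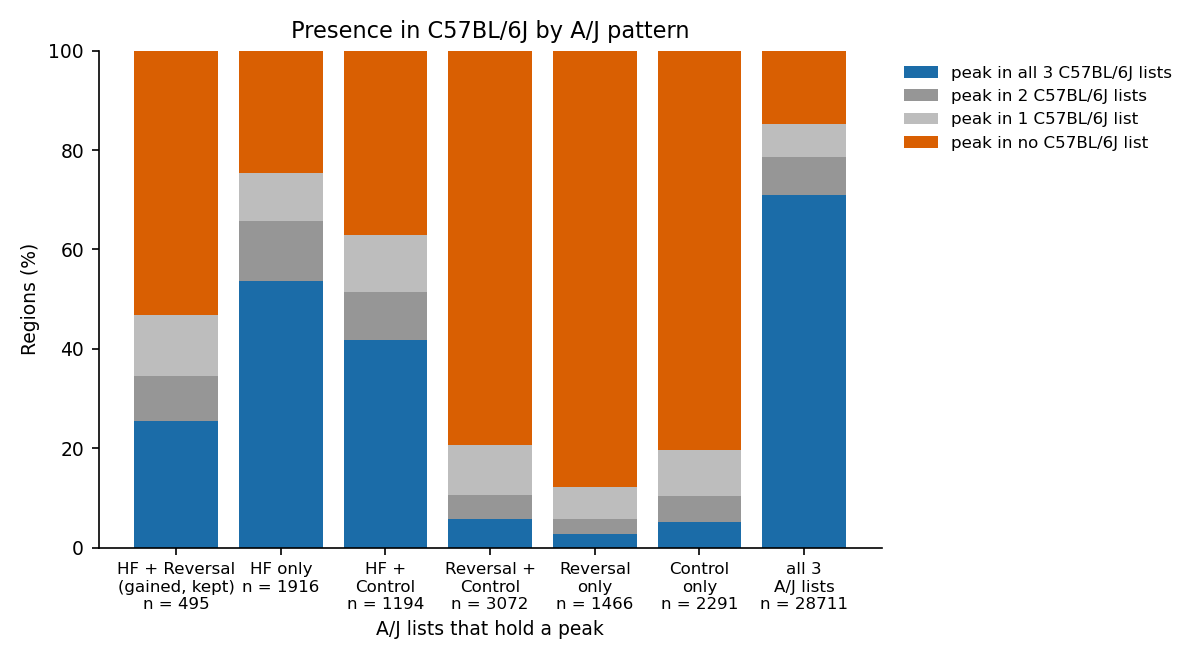
Stacked bars give the percent of regions (y axis) with a peak in all 3, 2, 1 or no C57BL/6J lists, for each combination of A/J lists that hold a peak (x axis, with the number of regions). The members in the left bar have 25.5% in all 3 C57BL/6J lists and 53.1% in none, between the HF-only regions and the Reversal-only regions, while regions open on all 3 A/J diets have 71.0% in all 3.

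At like A/J HF rank the members lay nearer to regions open on every A/J diet than to HF-only regions. At 60 to 80% of the HF list, 59 of 95 members held a C57BL/6J peak (62.1%, 52.1 to 71.2), against 92.8% of HF-only regions (90.02 to 94.9) and 70.6% of all-diet regions (69.4 to 71.8). In the weakest 20% of the HF list it was 145 of 372 members (39.0%, 34.2 to 44.0), against 69.3% of HF-only regions (66.8 to 71.6) and 44.4% of all-diet regions (42.9 to 46.1). The difference from HF-only regions was -30.7 points in the stronger bin (-41.0 to -21.2) and -30.3 in the weaker (-35.7 to -24.7). With only the A/J HF and Reversal lists cut to their strongest 80%, 30 members are left and ranks are percents of the shortened lists. The bins then hold other regions than the same bins of the whole list. There the difference from HF-only regions was 0.80 points at 60 to 80% (-31.6 to 4.39), a change of sign with an interval that takes in both signs. At 80 to 100% of the shortened list it was -35.1 points (-55.3 to -15.6). In the whole list the difference of the members from all-diet regions was -8.49 points at 60 to 80% (-18.6 to 0.70). In the weakest 20% it was -5.47 points (-10.5 to -0.18). All 28 members ranked at 40 to 60% on HF were open in C57BL/6J on every diet, as were all 51 HF-only regions of that rank.

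By Reversal rank the order ran the other way within the members. A C57BL/6J peak was present in 33 of 105 members at 60 to 80% of the Reversal list (31.4%, 23.3 to 40.8), in 63 of 147 at 80 to 90% (42.9%, 35.1 to 50.9) and in 129 of 236 at 90 to 100% (54.7%, 48.3 to 60.9). From 60% down, a lower Reversal rank thus went with more C57BL/6J peaks and a lower HF rank with fewer. The 7 members above 60% on Reversal were an exception, since all held a C57BL/6J peak. From 60 to 80% to 90 to 100% of the HF list, the share also fell in HF-only regions (92.8% to 63.1%). It fell likewise in regions open on HF and Control (78.7% to 47.9%) and in all-diet regions (70.6% to 37.1%). Over the same bins of the Reversal list, Reversal-only regions rose less (8.21% to 13.4%). Regions open on Reversal and Control (20.02% to 21.7%) and all-diet regions (66.3% to 64.8%) changed little. At 60 to 80% of the Reversal list the members stood far below the all-diet regions, of which 66.3% held a C57BL/6J peak (difference -34.8 points, -43.0 to -25.3). They lay nearer to regions open on Reversal and Control, with 20.02%, and to Reversal-only regions, with 8.21%. In the weakest 20% of the Reversal list 50.1% of 383 members held a C57BL/6J peak. There 12.5% of Reversal-only regions, 20.6% of regions open on Reversal and Control, and 62.7% of all-diet regions did so.

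**Figure D4:**
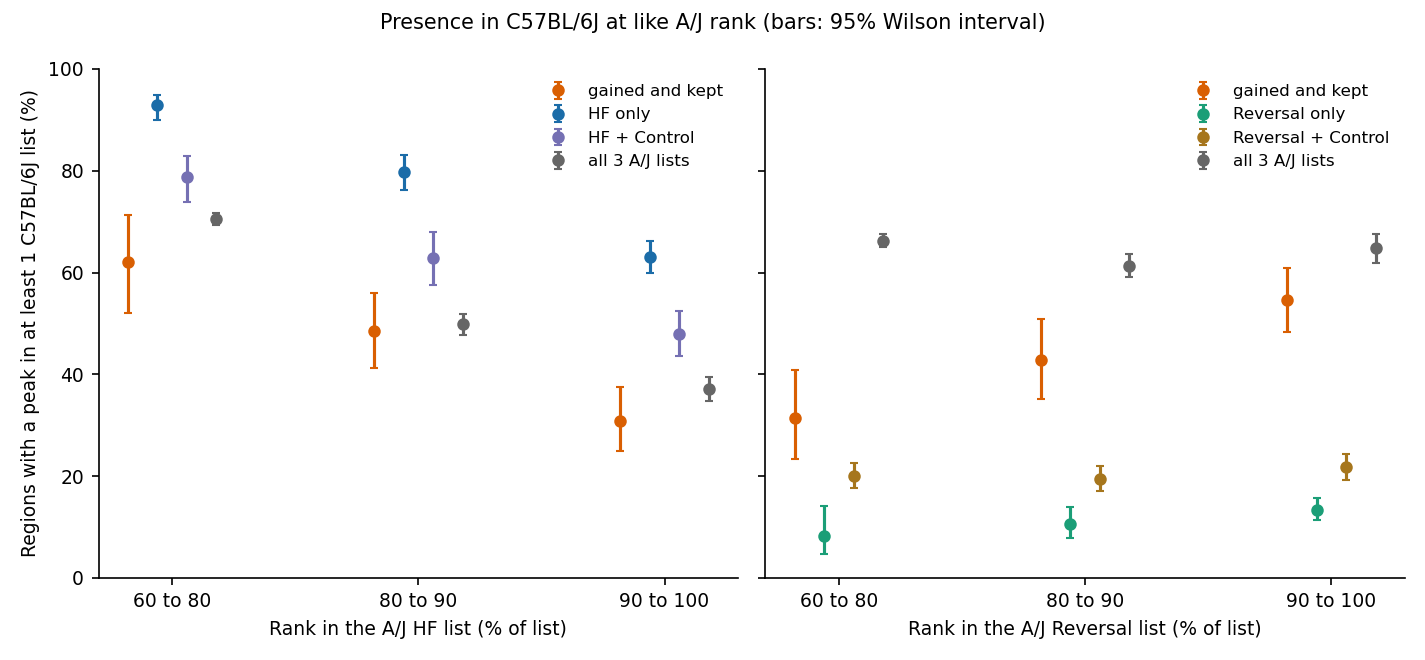
Percent of regions with a peak in at least 1 C57BL/6J list (y axis) in bins of rank in the A/J HF list (left) and the A/J Reversal list (right), with 95% Wilson intervals as bars, for the members and for 3 other A/J patterns in each panel. In the weakest 20% of the HF list the members had 39.0%, near the 44.4% of regions open in all 3 A/J lists and below the 69.3% of HF-only regions, whereas at 60 to 80% of the Reversal list they had 31.4%, far below the 66.3% of regions open in all 3.

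The C57BL/6J list that was missing also differed between patterns. Of the 495 members, 180 held a peak in the C57BL/6J HF list (36.4%), 190 in the Reversal list (38.4%) and 159 in the Control list (32.1%). Over all A/J regions the shares were 65.5%, 66.3% and 61.8% in the same order of lists, so that Control was the lowest there as among the members. Of the HF-only regions, 61.5%, 62.1% and 71.2% did so, with Control the highest. Among the 232 members with any C57BL/6J peak, 73 lacked one on Control (31.5%, 25.8 to 37.7). Over all A/J regions with a C57BL/6J peak, 3961 of 28156 did (14.1%, 13.7 to 14.5). The share was lower in such HF-only regions, with 80 of 1445 (5.54%, 4.47 to 6.84). It was higher in Reversal-only regions (52.2%) and in regions open on Reversal and Control (52.6%). In the weakest 20% of the A/J HF list it was 57 of 145 members (39.3%, 31.7 to 47.4), 7.76% of 992 HF-only regions (6.26 to 9.59) and 37.9% of 1641 all-diet regions (35.6 to 40.3). The members' share was thus close to that of A/J regions open on every diet at like HF rank. The HF-only regions stood below both. The all-diet regions were matched on HF rank only, and their median Reversal rank was 77.1%, against 89.4% over all members.

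Few members had the same pattern in the other strain. A C57BL/6J peak on HF and Reversal and none on Control was found at 22 members (4.44%, 2.95 to 6.64), against 4.32% of all A/J regions, a share near the background. Among HF-only regions it was 1.15% (0.76 to 1.73). The 22 had A/J HF signals between 0.112 and 0.153 and include regions on chromosome 13 from 81474346 to 81474698, chromosome 1 from 157416488 to 157416802 and chromosome 4 from 148329285 to 148329678. These were named as the highest in A/J HF signal after their values were seen. Another 21 members held a C57BL/6J peak on HF only (4.24%), against 2.93% of all A/J regions, and 30 on Reversal only (6.06%), against 2.87%. The reverse pattern, a C57BL/6J peak on Control and none on HF or Reversal, was found at 10 members (2.02%, 1.10 to 3.68). That is near the 1.62% of all A/J regions.

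Members open in C57BL/6J differed from the others in rank order. The 126 with a peak in all 3 C57BL/6J lists had a median HF rank of 78.0% (72.6 to 84.1) and a median Reversal rank of 91.1% (89.5 to 93.4). The 263 with none had 90.6% on HF (89.3 to 92.2) and 88.2% on Reversal (86.3 to 89.3). HF was the stronger rank in 93 of the 126 (73.8%, 65.5 to 80.7) and in 108 of the 263 (41.1%, 35.3 to 47.1). In C57BL/6J the 126 ranked at a median of 61.2% on HF, 62.7% on Reversal and 56.6% on Control. In 77 of the 126 every C57BL/6J rank was higher than both A/J ranks, and in 22 the peak lay in the stronger 50% of every C57BL/6J list. These counts were not made for other patterns, so they do not set the members apart. The 1029 HF-only regions with a peak in all 3 C57BL/6J lists also ranked higher in C57BL/6J. Their medians were 60.4% on HF, 63.9% on Reversal and 44.9% on Control there, against 83.8% on A/J HF. The member with the second strongest C57BL/6J signal is an extreme case, on chromosome 9 from 115060507 to 115060985. It ranked at 82.4% on HF and 99.7% on Reversal in A/J, and at 23.0%, 24.6% and 10.3% on HF, Reversal and Control in C57BL/6J. The region on chromosome 18 from 44707677 to 44708127 was alike, at 58.7% and 99.2% in A/J and 23.5%, 31.2% and 17.2% in C57BL/6J.

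Members lay about as close to chromatin open on Control as regions of most other A/J patterns did. The nearest A/J Control peak was a median of 6370 bp away (5182 to 8413), with 68 members within 500 bp (13.7%), 287 within 10 kb (58.0%) and 40 beyond 100 kb (8.08%). HF-only regions were much farther, at a median of 27482 bp (23258 to 31396), with 35.2% within 10 kb and 30.3% beyond 100 kb. For all-diet A/J regions the nearest other Control peak was 5347 bp away (5171 to 5480), with 62.9% within 10 kb and 4.30% beyond 100 kb. The nearest Control peak was 5292.5 bp away for Reversal-only regions (4830 to 5942), with 65.3% within 10 kb. The nearest other one was 5114.5 bp away for regions open on HF and Control (4414 to 6182). For those open on Reversal and Control it was 4816 bp away (4409 to 5331). The members' distances were thus near those of these patterns and of regions open on every diet. Of the patterns measured, only HF-only regions stood apart, with a larger median whose interval does not overlap that of the members. With only the A/J HF and Reversal lists cut to their strongest 80%, the medians were 16068 bp for the 30 members left (7520 to 26749) and 48891 bp for HF-only regions (39801 to 62900). With regions that have a Control peak within 500 bp left out, the medians were 9617 bp for the members (7902 to 11733) and 35329.5 bp for HF-only regions (30847 to 40330).

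Distance also separated the members by their presence in C57BL/6J. The 263 with no C57BL/6J peak lay a median of 4426 bp from the nearest A/J Control peak (3589 to 6129), and the 126 with a peak in all 3 lists 15538 bp (9617 to 23304). HF-only regions showed the same order, with 7647 bp (5316 to 9751) for those in no C57BL/6J list and 62027 bp (52201 to 75897) for those in all 3. Within either C57BL/6J class the members were the nearer, although the intervals for regions in no C57BL/6J list overlap.

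**Figure D5:**
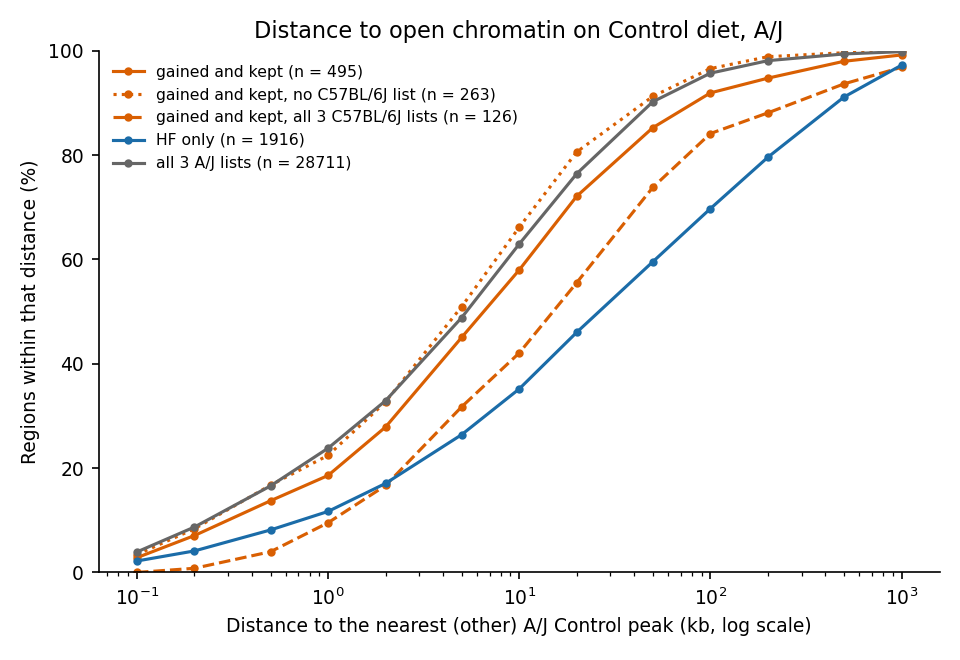
Percent of regions (y axis) whose nearest A/J Control peak, other than their own, lies within the distance on the x axis (kb, log scale), for all members, for members with a peak in no or all 3 C57BL/6J lists, for HF-only regions and for regions open on all 3 A/J diets. At 10 kb the curves stand at 58.0% for the members, 35.2% for HF-only regions and 62.9% for all-diet regions.

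Members were spread over all 19 chromosomes and seldom lay together. They numbered between 9 on chromosome 19 and 44 on chromosome 5, and as a share of the A/J HF regions of a chromosome they ran from 0.79% on chromosome 19 (0.41 to 1.49) to 2.20% on chromosome 18 (1.41 to 3.41), against 1.53% overall. The interval of chromosome 19 lies just below the overall share, and that of chromosome 18 includes it. The nearest other member was a median of 1068041 bp away, and 4 members had one within 10 kb. The nearest pair lay 1214 bp apart on chromosome 9, one region from 59413478 to 59413754 and the other from 59414968 to 59415241. The first of the pair ranked at 68.7% on HF and 84.7% on Reversal and the second at 79.3% and 65.3%. Their higher ranks were thus in different lists, and neither held a C57BL/6J peak.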

How the data were processed

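FAIRE peaks of A/J and C57BL/6J liver were taken from 6 deposited peak lists, whose strain and diet are known from their names and matched to the sample titles. Bowtie2, TopHat, DESeq2 and the mm9 build are named, without version or role, per the submitters' processing notes. The sources used here give no peak caller, filter or pooling of libraries. The deposited signal per peak is the authors' value on an unstated scale, and the lists carry no p or q. Ranks were computed within each whole list. Peaks on chromosomes 1 to 19 were merged at an overlap of at least 1 bp, which was tested on simulated data and against bedtools 2.31.1. A region with several peaks of a list took the strongest. Distances count adjacent bases as 1 bp. Intervals came from statsmodels 0.14.6 and scipy 1.17.1.

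Named regions were the 8 members with the highest HF signal, the 5 with the highest Reversal and the 5 with the highest C57BL/6J signal, the 3 widest and narrowest, the nearest pair and the 3 lowest signals on HF and on Reversal. The members and rules were chosen with earlier results of these data known. Alternatives changed the merging, the overlap, the list length, the distance to Control peaks and the chromosomes. Expression tables were not used, since mm9 positions of genes were lacking.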

Additional observations from a re-analysis of the deposited data

Results flagged for a closer look

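At 10 members the C57BL/6J pattern was the reverse of the A/J one, with a C57BL/6J peak on Control and none on HF or Reversal (2.02% of members, 1.10 to 3.68, against 1.62% of all A/J regions). That interval includes the share over all A/J regions, so the count is near the background. With 1 list per strain and diet, no difference between the strains was tested. The highest A/J HF signal among the 10 was 0.156, on chromosome 5 from 14928983 to 14929376, where the C57BL/6J Control peak ranked at 75.6% of its list. The strongest C57BL/6J Control rank among them was 74.4%, on chromosome 16 from 65910115 to 65910763.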

How the results depend on the processing

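Over 8 alternatives and 13 results, 72 of 95 values stayed within the interval of the value reported (counts within 1.5 times), 22 moved and 1 changed sign. With lists of equal length 701 regions qualified, and with all chromosomes 510, against 495. Requiring no Control peak within 500 bp gave a median distance of 9617 bp. Leaving out the C57BL/6J Control list was an alternative added once the data had been seen, and with it the difference from HF-only regions in the weakest 20% of HF was -24.1 points. With lists cut to the size of the shortest, 23.3% of gained regions were kept and the difference in C57BL/6J presence was -23.0 points. With every list cut to its strongest 80%, the median ranks were 89.1% on HF and 91.1% on Reversal of the shortened lists, the HF width 333 bp, the distance 9467 bp and the share without a C57BL/6J Control peak 22.2%. With only the A/J HF and Reversal lists cut, also chosen after the data were seen, 30 regions were left, by construction, which is 4.94% of gained regions. Of these, 66.7% held a C57BL/6J peak, -23.5 points from HF-only regions, the HF rank was 89.9% of the shortened list, the HF width 330.5 bp, the distance 16068 bp, and 25% lacked a C57BL/6J Control peak. There the difference at 60 to 80% of HF rank in the shortened list, which is another bin than in the whole list, turned to 0.80 points (-31.6 to 4.39). At 80 to 100% of the shortened list it was -35.1 points. No paired analysis was possible because each strain and diet has 1 list, and no library could be left out for the same reason. Sequencing depth is unknown and limits what absence from a list can show.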
